A study of Mus musculus with 2 samples.

Results

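Progenitor and dedifferentiation genes in mouse islets were followed here as a set of 7: Neurog3, Aldh1a3, Gast, Cck, Sox9, Sox4 and Hes1. They were chosen by gene symbol, 7 of the 22383 features listed in the count matrices, with no threshold on measured values but with earlier results of these data known. To study β-cells that lack the transcriptional co-factors TBL1X and TBL1XR1, islets of mice aged 5 weeks were profiled by single-cell RNA-sequencing in 2 libraries, each made from 150 islets pooled from 4 mice. Islets were cultured overnight before the cells were dissociated and loaded for droplet sequencing with 3′ chemistry. The control library, labelled wildtype, came from littermates without Cre, and the other library, labelled TBL/RβKO, came from mice with floxed Tbl1xr1 and Tbl1x alleles (fl/fl for each) and Ins1Cre, in which Cre stands in the endogenous Ins1 locus and acts in insulin-transcribing cells. Both groups were on the C57BL/6N background. With 1 library per group the replicate error is unknown, and no test was run. All intervals are exact 95% intervals and cover counting error only.

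Neurog3 encodes the basic helix-loop-helix factor that commits pancreatic progenitors to the endocrine lineage and is switched off as hormone-positive cells mature. Notch signalling, acting through the repressor HES1, holds progenitors back from Neurog3 expression, while SOX9 maintains the progenitor and duct state and SOX4 acts in endocrine differentiation. Gast (gastrin) and Cck (cholecystokinin) encode related peptide hormones that are made in the developing pancreas or the gut and are low in the mature β-cell. Aldh1a3, which encodes a retinaldehyde dehydrogenase of retinoic acid synthesis, is widely used as a marker of β-cells that have lost their mature state.

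All 7 genes matched the GENCODE annotation of GRCm39 by Ensembl identifier and are protein-coding. Neurog3 lies at chr10:61968862-61970766 on the plus strand with 2 exons in its canonical transcript, Gast at chr11:100218410-100227823 (plus, 3 exons) and Cck at chr9:121315695-121324863 (minus, 3 exons). Aldh1a3 lies at chr7:66040638-66077850 (minus, 13 exons), Sox9 at chr11:112673009-112678586 (plus, 3 exons), Sox4 at chr13:29132902-29137696 (minus, 1 exon) and Hes1 at chr16:29882134-29886643 (plus, 4 exons). The 250 bases before the start of the canonical transcript are shown for the 3 members with the highest ratio between the libraries in insulin-positive cells. These members were picked by that ratio alone, and shared regulation was not tested. The bases are read 5′ to 3′ on the strand of the gene. Capitals mark the E-box CANNTG, the site of basic helix-loop-helix factors, in Neurog3 (chr10:61968612-61968861) and Cck (chr9:121324864-121325113), and the CACC box CACCC, here on the reverse strand, in Gast (chr11:100224891-100225140). The CACC box was chosen after the sequences had been seen.
Neurog3: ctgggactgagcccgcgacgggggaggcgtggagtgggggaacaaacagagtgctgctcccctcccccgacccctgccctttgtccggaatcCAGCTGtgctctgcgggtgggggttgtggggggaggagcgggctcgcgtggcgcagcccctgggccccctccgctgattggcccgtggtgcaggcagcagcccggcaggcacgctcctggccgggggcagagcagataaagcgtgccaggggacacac
Gast: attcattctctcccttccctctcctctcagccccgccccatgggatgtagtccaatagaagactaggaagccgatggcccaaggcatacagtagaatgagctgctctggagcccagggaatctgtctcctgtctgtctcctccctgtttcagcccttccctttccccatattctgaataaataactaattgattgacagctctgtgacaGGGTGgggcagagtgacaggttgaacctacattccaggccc
Cck: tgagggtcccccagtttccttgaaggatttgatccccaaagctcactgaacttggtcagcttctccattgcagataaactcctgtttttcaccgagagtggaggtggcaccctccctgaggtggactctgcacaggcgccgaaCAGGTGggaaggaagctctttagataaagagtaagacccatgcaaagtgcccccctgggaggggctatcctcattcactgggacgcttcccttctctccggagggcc

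Motif matches were searched on both strands in the same window of all 7 members. An E-box was present once each in Neurog3, Cck and Sox4 and was not found in the windows of the other 4 members, and 64.8% of 21757 protein-coding promoters of the same length held at least 1. The N-box CACNAG, the site of HES factors, had 3 matches in Hes1 and 1 in Sox4, against 36.5% of promoters with a match. The SOX motif ACAANG had 2 matches in Hes1 and 1 in Neurog3, against 34.9% of promoters with a match. The CACC box matched in 6 of the 7 windows, Hes1 being the exception, and in 52.9% of promoters. Each motif was thus common among promoters, and of the 3 members shown Gast had no E-box in this window. A match is a run of letters and no evidence of a bound factor.

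The control library held 7067 barcodes and 241434108 unique molecular identifiers (UMIs), and the library labelled TBL/RβKO 5833 barcodes and 185062206 UMIs. After the filter (over 2500 detected genes and under 10% mitochondrial UMIs) 4747 and 4179 barcodes remained, and 12 barcode sequences occurred in both. Each barcode took the class of its largest hormone, insulin (Ins1 and Ins2 together), Gcg, Sst or Ppy, where this reached 1% of its UMIs, which gave 2877 and 1338 insulin-class barcodes. In the insulin class of the control library the β-cell genes Slc2a2 and Mafa stood at 758 and 1112 CPM (UMIs scaled to a common total), and in that of the library labelled TBL/RβKO at 97.1 and 150. CPM here are of UMIs outside hormone and mitochondrial genes, because insulin took 49.6% of the class's UMIs in the control library and 27.9% in the other. The insulin class of the library labelled TBL/RβKO was also deeper (median 38667 against 21450 UMIs outside hormones) and more often held a second hormone (60.8% against 16.3% of barcodes), and whether such barcodes hold 1 cell or several was not tested. Barcodes with 6000 detected genes or more, which the study's upper limit leaves out, made up 76.7% of this class in that library and 49.5% in the control library. UMIs of the targeted genes ran against the label in this class, with Tbl1x at 233 and 616 CPM and Tbl1xr1 at 48.1 and 226 CPM in the control library and the library labelled TBL/RβKO, and which exons were deleted is not given in the sources used here, so 3′ UMIs may fall outside them. By qPCR the paper reports lower Tbl1x and Tbl1xr1 mRNA in TBL/RβKO islets at the same age. Cre UMIs were found in 274 of the 1338 insulin-class barcodes of the library labelled TBL/RβKO and in no control barcode. Its mice carried Ins1Cre, so a barcode without a Cre UMI is not shown to lack Cre or the deletion.

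In insulin-class barcodes all 7 members were higher in the library labelled TBL/RβKO than in the control library, 5 of them by at least 2-fold. Among all 14999 genes with at least 20 UMIs in this class, 8.61% were at least 2-fold higher and 5.76% at least 2-fold lower, and no member was lower. Because the members were chosen with earlier results of these data known, their count above this background is no independent evidence. The log2 ratio was 5.78 for Gast (5.62 to 5.96), 4.03 for Cck (3.27 to 4.90), 2.23 for Neurog3 (2.10 to 2.36), 1.27 for Aldh1a3 (0.95 to 1.60), 1.14 for Sox9 (0.87 to 1.41), 0.66 for Hes1 (0.56 to 0.76) and 0.58 for Sox4 (0.53 to 0.63). The median gene stood at -0.13 on this scale and at 0.32 when CPM of all UMIs were used, so the ratios are read against that shift. Only 17 genes had a ratio above that of Gast, 85 above Cck and 384 above Neurog3, whereas 2160 stood above Sox4.

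**Figure D1:**
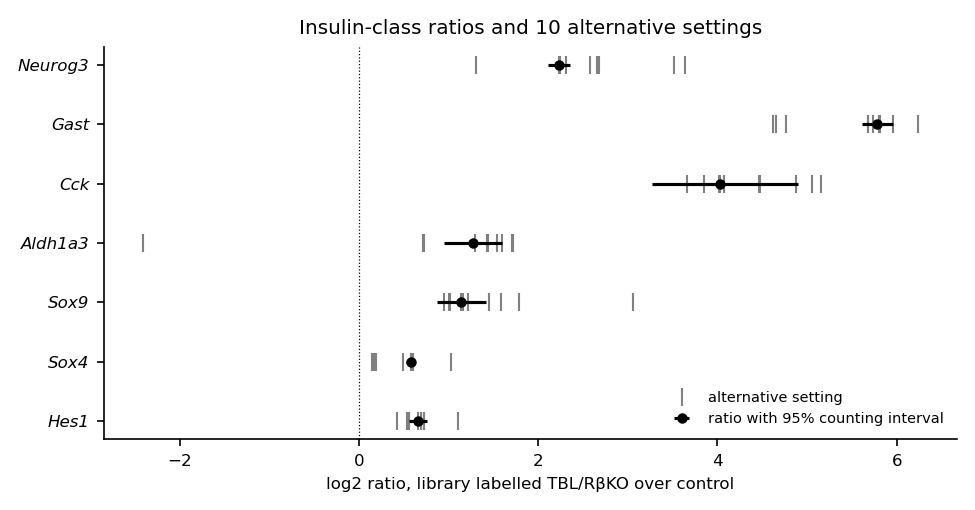
Log2 ratio of each gene in insulin-class barcodes, library labelled TBL/RβKO over control, on the x axis (black point with its 95% counting interval), and the same ratio under 10 alternative settings (grey ticks). Gast, Cck and Neurog3 stay above 1 throughout, Sox4 and Hes1 stay between 0 and 1.11, and Aldh1a3 has 1 setting at -2.41.

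Neurog3, the endocrine-commitment factor, gave 666 UMIs in the control insulin class and 2368 in that of the library labelled TBL/RβKO, or 8.78 CPM (8.13 to 9.47) and 41.2 CPM (39.5 to 42.9), a 4.69-fold ratio. Of these UMIs, 615 and 2218 lay in barcodes with 6000 genes or more. In barcodes with fewer genes the levels were 2.26 CPM (1.68 to 2.97) and 25.8 CPM (21.9 to 30.3). The gene was seen in 264 of 2877 barcodes (9.18%, 8.15 to 10.3) and in 452 of 1338 (33.8%, 31.2 to 36.4). After every barcode had been thinned to 5000 UMIs, which takes out the unequal depth, 2.72% (2.15 to 3.38) and 10.9% (9.29 to 12.7) of barcodes still held a Neurog3 UMI. Barcodes with stromal markers and no hormone, which should lack the gene, held no Neurog3 UMI in 35 control barcodes and 95 barcodes of the other library (0 of 35, which allows a share of up to 8.57%, and 0 of 95, up to 3.16%). The insulin-class share of the library labelled TBL/RβKO lay above this limit, before and after thinning. The limit from the 35 control barcodes is too wide to place the control share. This background covers only barcodes chosen to lack a hormone. With those that had a hormone included, 6 of 114 stromal-marker barcodes of the library labelled TBL/RβKO held Neurog3 (5.26%, 1.96 to 11.1). In that library 9 of 146 barcodes with no class and no non-endocrine markers held it (6.16%, 2.86 to 11.4).

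In the control library Neurog3 was highest in Sst-positive barcodes. The Sst class held it at 95.4 CPM (86.1 to 106) in the control library and 73.8 CPM (67.9 to 80.0) in the library labelled TBL/RβKO, with a UMI in 65.9% and 60.2% of barcodes. Of the control insulin class's Neurog3 UMIs, 71.3% came from the 230 barcodes (7.99%) that also reached the Sst threshold. In the library labelled TBL/RβKO that share was 30.7%, and 58.9% came from the 527 barcodes that reached the Ppy but not the Sst threshold. Among barcodes with insulin and no other hormone Neurog3 went from 2.05 CPM (1.70 to 2.46) to 12.3 CPM (10.8 to 14.0), a log2 ratio of 2.58 (2.26 to 2.92). Among those with Ppy and no Sst it went from 18.1 CPM (13.2 to 24.3) to 57.9 CPM (54.9 to 61.0), while among those with Sst the values were 48.2 and 59.8 CPM (log2 ratio 0.31, 0.14 to 0.48). Where Gcg was the only other hormone they were 4.82 and 6.84 CPM (log2 ratio 0.51, -0.42 to 1.41). The ratio was thus smaller with Sst than with insulin alone or with Ppy. All barcodes without Sst pooled gave a log2 ratio of 3.64 (3.43 to 3.87), above that of each group in the pool. Barcodes with Ppy were 527 of 1114 in this pool in the library labelled TBL/RβKO and 65 of 2647 in the control library. The pooled value thus mixes the groups in unequal shares and is not a rise seen within any of them.

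**Figure D2:**
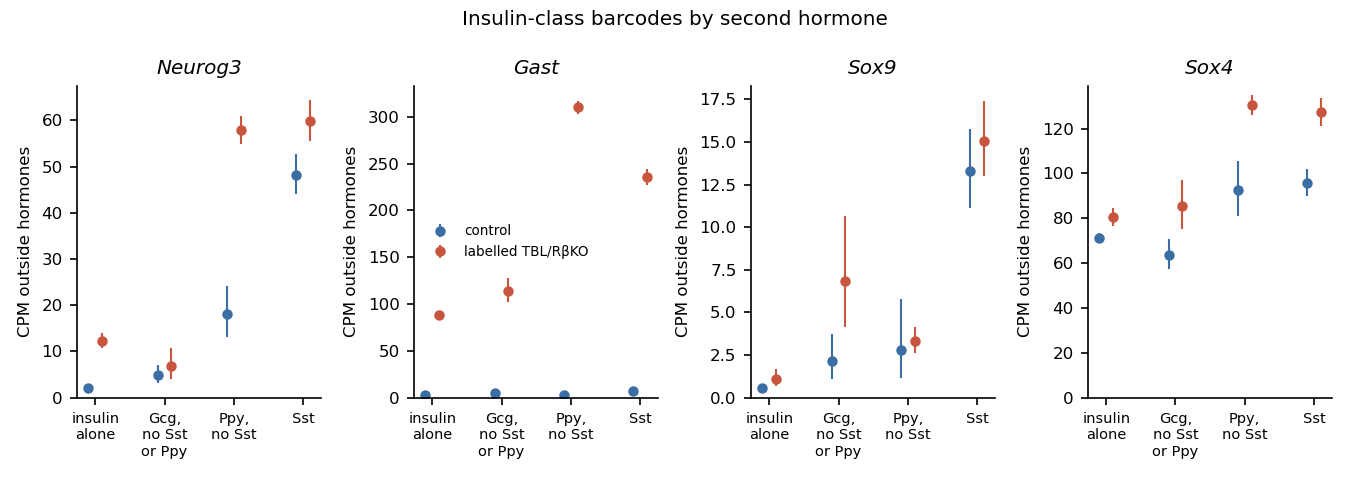
CPM outside hormones (y axis) of 4 members in insulin-class barcodes, split by the other hormones present (x axis), in the control library (blue) and the library labelled TBL/RβKO (red). Bars are 95% counting intervals. Neurog3 and Sox9 are highest with Sst in both libraries, and Gast is above 88 CPM in all 4 red groups and under 8 CPM in all blue ones.

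The Ppy class differed most like the insulin class, from 10.7 CPM of Neurog3 (8.20 to 13.7) to 44.2 CPM (40.8 to 47.9), and the Gcg class hardly, with 7.96 and 8.55 CPM (log2 ratio 0.10, -0.19 to 0.40). In the Sst class the log2 ratio was -0.37 (-0.56 to -0.18). Within the insulin class Neurog3 was lower in each higher insulin band of the library labelled TBL/RβKO and peaked in the band of 10 to 30% in the control library. From the band of 1 to 10% insulin to that of 50% or more it stood at 66.9, 50.8, 15.2 and 3.74 CPM in the library labelled TBL/RβKO, and at 14.5, 35.1, 10.6 and 2.39 CPM in the control library. At matched insulin level the log2 ratio was 2.21 (1.65 to 2.82) in the lowest band but 0.53, 0.53 and 0.64 in the other 3, the last with an interval of -0.25 to 1.44. The lowest control band rests on 27 UMIs in 6 barcodes, 1 of which held 16. The lower 2 bands held 243 and 574 of 1338 barcodes in the library labelled TBL/RβKO and 163 and 152 of 2877 in the control library. The log2 ratio of 2.23 for the whole insulin class thus mixes the bands in unequal shares. It is above that of each band and is not a rise at like insulin level.

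Neurog3 UMIs were found in many barcodes, but a small share of these barcodes held most of them. The library labelled TBL/RβKO had 57 insulin-class barcodes with 10 or more, up to 132 in 1 barcode, against 7 control barcodes with at most 16. These 57 held 52.7% of the Neurog3 UMIs and 51 of them also reached the Ppy threshold (89.5%), compared with 640 of the other 1281. The 57 were also deeper, with a median of 50266 UMIs outside hormones against 38238. How far depth sets the difference in Ppy was not tested. Barcodes with a Cre UMI and those without held Neurog3 at 37.7 CPM (34.4 to 41.2) and 42.2 CPM (40.3 to 44.1). The gene was thus no higher where a Cre UMI was seen, a split by detection and not by deletion.

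**Figure D3:**
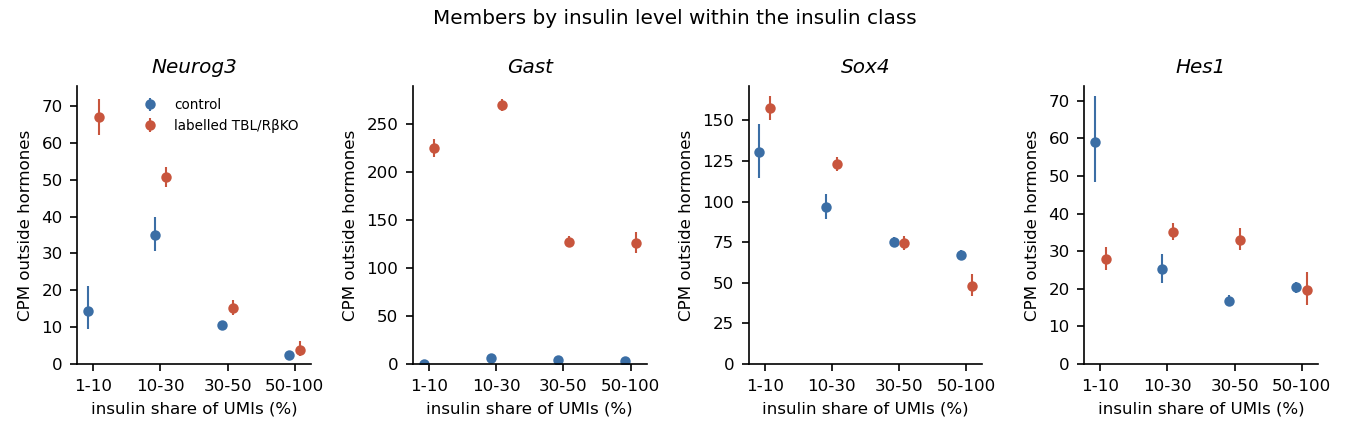
CPM outside hormones (y axis, from 0) of Neurog3, Gast, Sox4 and Hes1 in insulin-class barcodes by the share of UMIs that are insulin (x axis, %), in the control library (blue) and the library labelled TBL/RβKO (red), with 95% counting intervals. Neurog3 falls with insulin in the red series, from 66.9 to 3.74 CPM, while Gast is above 126 CPM in every red band and under 7 CPM in every blue one.

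Gast showed the largest ratio of the 7. Its insulin-class sums were 294 UMIs in the control library and 12278 in the library labelled TBL/RβKO, 3.88 CPM (3.45 to 4.35) against 214 CPM (210 to 217), a 55.1-fold ratio (49.1 to 62.0). Barcodes with 6000 genes or more held 223 and 11820 of these UMIs. In barcodes with fewer genes the levels were 3.14 CPM (2.46 to 3.97) and 78.8 CPM (71.8 to 86.4). A Gast UMI was present in 7.65% (6.70 to 8.68) and 36.5% (33.9 to 39.1) of barcodes, and in 1.57% (1.15 to 2.09) and 14.6% (12.8 to 16.7) after thinning. Stromal-marker barcodes without a hormone gave 0 of 35 and 1 of 95 (1.05%, 0.0266 to 5.73), and macrophage-marker barcodes 3 of 73 in the library labelled TBL/RβKO (4.11%, 0.856 to 11.5), each with 1 UMI. The median depth of stromal-marker barcodes in that library was 37394.5 UMIs outside hormones, close to that of the insulin class.

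Gast differed between the libraries at every insulin level. From lowest to highest insulin the library labelled TBL/RβKO stood at 225, 270, 127 and 126 CPM and the control library at 0.536 (1 UMI), 6.53, 3.91 and 3.55 CPM. At matched insulin the log2 ratio was 5.37 (4.94 to 5.83), 5.03 (4.76 to 5.31) and 5.15 (4.87 to 5.44) in the upper 3 bands. Barcodes with insulin alone went from 3.23 CPM (2.78 to 3.73) to 88.1 CPM (83.8 to 92.5), those with Ppy and no Sst from 2.82 CPM (1.13 to 5.81) to 310 CPM (303 to 317) and those with Sst from 7.51 CPM (5.90 to 9.43) to 236 CPM (227 to 245). Gast was thus higher in these groups, and highest where Ppy was present without Sst. Not every finer combination followed, since barcodes of any class with insulin, Gcg and Sst but no Ppy held 5.88 CPM (2.94 to 10.5) in the control library and 8.59 CPM (3.45 to 17.7) in the other, on 11 and 7 UMIs.

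Gast in the Ppy class went from 8 UMIs (1.38 CPM, 0.596 to 2.72) to 3217 UMIs (235 CPM, 227 to 243), a log2 ratio of 7.41 (6.43 to 8.63). Smaller ratios were found in the Gcg class (4.24 to 11.2 CPM, log2 1.40) and the Sst class (8.04 to 29.3 CPM, log2 1.86), where 1 barcode with 169 of the 230 UMIs set the second value. In the Ppy class the 10 highest barcodes held 86.3% of the Gast UMIs.

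Few barcodes carried most of the Gast signal. Of 1338 insulin-class barcodes in the library labelled TBL/RβKO, 126 (9.42%) held 10 or more UMIs, 46 (3.44%) held 50 or more and the highest held 1537, whereas 1 control barcode reached 10 and the highest held 19. The 126 barcodes carried 93.9% of all Gast UMIs of the class, and the 10 highest carried 43.8%. Ppy accompanied Gast in 85 of the 126 (67.5%) and in 606 of the other 1212 barcodes, and their median insulin share was 17.1% against 24.3%. Their median depth was 52881.5 UMIs outside hormones against 37103, and the part of depth in these differences was not tested. Gast at 10 or more UMIs went with a Cre UMI in 33 of 126 barcodes (26.2%), compared with 241 of the other 1212 (19.9%), and Gast stood at 204 CPM (196 to 212) with a Cre UMI and 216 CPM (212 to 221) without.

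**Figure D4:**
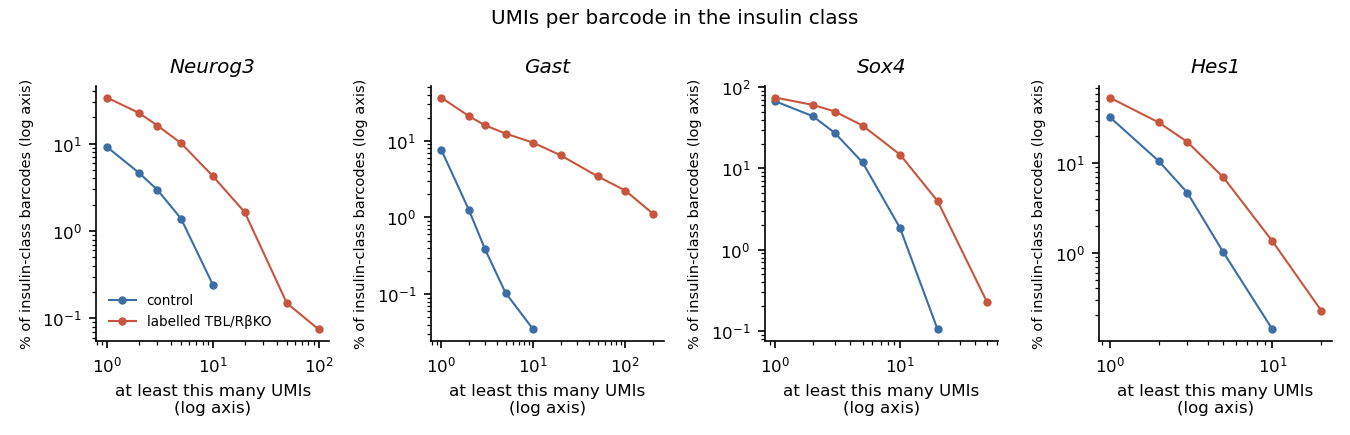
Share of insulin-class barcodes (y axis, %, log axis) with at least the number of UMIs on the x axis (log axis) for 4 members, in the control library (blue) and the library labelled TBL/RβKO (red). Shares of 0 are not drawn. For Gast the red line stays above 1% up to 200 UMIs and the blue line ends at 10 UMIs, while for Sox4 both lines start above 66%.

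Cck, the peptide hormone most closely related to gastrin, was scarce in both libraries. The insulin class held 15 UMIs in the control library and 186 in the library labelled TBL/RβKO, 0.20 CPM (0.11 to 0.33) and 3.23 CPM (2.79 to 3.73), a 16.4-fold ratio (9.66 to 29.8). A UMI was seen in 14 barcodes (0.487%) and 45 barcodes (3.36%), and 6 barcodes with 10 or more carried 68.8% of the UMIs in the library labelled TBL/RβKO. Cck stood at 4.90 CPM (3.77 to 6.28) in barcodes with a Cre UMI and 2.75 CPM (2.29 to 3.29) in those without. In the 6 highest barcodes Gast stood at 724 CPM, compared with 211 CPM in the other 1332. After thinning, Gast was detected in 5 of 15 Cck-positive barcodes (33.3%, 11.8 to 61.6) and in 14.4% of the remainder (12.6 to 16.4), intervals that overlap. Outside the insulin class Cck went from 0.69 to 5.78 CPM in the Ppy class, where 1 barcode with 48 of 79 UMIs led, and from 0.80 to 1.80 CPM in the Gcg class. Stromal-marker barcodes without a hormone held Cck at 18.8 CPM (11.7 to 28.8) and 12.7 CPM (9.22 to 17.0), a higher level than in any hormone class, with 14 of 21 and 23 of 44 UMIs in 1 barcode each. By UMIs the insulin class of the library labelled TBL/RβKO held more, 186 against these 44.

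Aldh1a3, the retinaldehyde dehydrogenase, was chiefly found outside the endocrine classes. In stromal-marker barcodes without a hormone it stood at 199 CPM (174 to 227) in 35 control barcodes and at 639 CPM (613 to 667) in 95 barcodes of the library labelled TBL/RβKO, with a UMI in 20.0% (8.44 to 36.9) and 58.9% (48.4 to 68.9). These barcodes held 222 of the 389 control UMIs and 2218 of the 2668 UMIs of the other library. In the insulin class 125 and 229 UMIs gave 1.65 CPM (1.37 to 1.96) and 3.98 CPM (3.48 to 4.53), in 1.77% and 4.04% of barcodes. After thinning the shares were 0.488% (0.267 to 0.817) and 1.27% (0.742 to 2.03).

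The insulin-class ratio of Aldh1a3 depended on very few barcodes. Of the 6 barcodes with 10 or more UMIs in the library labelled TBL/RβKO, which held 59.0% of the sum, 5 also carried stromal markers, and of 2 such control barcodes 1 did. The stromal markers as a list (7 genes, none at 0) summed to 54.3 CPM in the control insulin class and 141 CPM in the other, with Mgp at 49.9 and 102 CPM, and leaving out every barcode with non-endocrine markers lowered the Aldh1a3 log2 ratio to 0.71 (0.30 to 1.13). Barcodes with a Cre UMI held Aldh1a3 at 1.25 CPM (0.712 to 2.02), no higher than the control insulin class, and those without at 4.77 CPM (4.15 to 5.45). The value with a Cre UMI rests on 16 Aldh1a3 UMIs in 10 barcodes. In barcodes with under 6000 genes only 3 Aldh1a3 UMIs remained in the library labelled TBL/RβKO against 62 in the control library, 34 of them in 1 barcode, and the log2 ratio turned to -2.41. The Gcg class (4 and 55 UMIs, 47 of them in 1 barcode) and the Ppy class (2 and 109 UMIs, 60 in 1 barcode) showed the same concentration, and the Sst class held 8.04 CPM (5.50 to 11.3) and 6.23 CPM (4.61 to 8.24). Neither library thus had an Aldh1a3 UMI in more than 4.04% of its insulin-class barcodes.

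**Figure D5:**
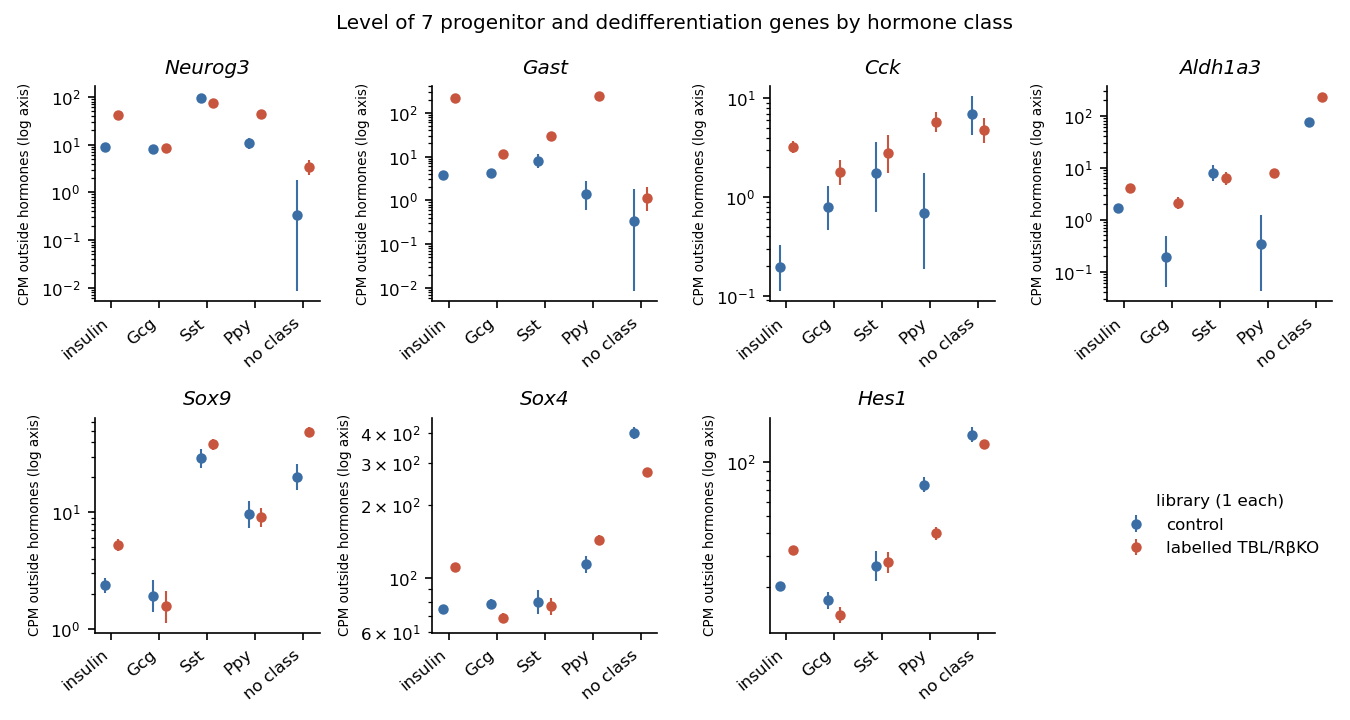
CPM outside hormones (y axis, log axis) of each gene by hormone class (x axis) in the control library (blue) and the library labelled TBL/RβKO (red), with 95% counting intervals. Neurog3 is highest in the Sst class, Aldh1a3, Sox4 and Hes1 in barcodes with no hormone class, and Gast in the red insulin and Ppy classes at 214 and 235 CPM.

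Sox9, the factor of duct and progenitor cells, was highest in ductal-marker barcodes without a hormone, at 252 CPM (225 to 281) in 29 barcodes of the library labelled TBL/RβKO, 27 of which held a UMI (93.1%). The control library had 1 such barcode, with 3 UMIs. Among endocrine classes Sst was highest, at 29.1 CPM (24.1 to 34.9) and 38.3 CPM (34.1 to 42.9), and both values exceeded the Ppy class (9.67 and 9.07 CPM) and the Gcg class (1.93 and 1.57 CPM). Insulin-class barcodes held 181 and 302 UMIs, 2.39 CPM (2.05 to 2.76) and 5.25 CPM (4.68 to 5.88), in 3.96% and 10.9% of barcodes and in 0.732% and 1.87% after thinning. As for Neurog3, barcodes that also had Sst supplied most of these UMIs, 72.4% in the control library and 60.6% in the other, and among them Sox9 hardly differed (13.3 and 15.1 CPM, log2 ratio 0.18, -0.15 to 0.52). With insulin alone Sox9 stood at 0.535 CPM (0.364 to 0.760) and 1.08 CPM (0.660 to 1.67). By insulin band the direction was not uniform, since the log2 ratio was 1.88 (0.62 to 3.53) in the lowest band, -0.90 (-1.31 to -0.48) at 10 to 30% and -0.39 (-1.01 to 0.21) at 30 to 50%.

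Sox4, which acts in endocrine differentiation and in many other tissues, was detected in most barcodes of both libraries. Its insulin-class level was 74.7 CPM (72.8 to 76.7) and 112 CPM (109 to 114), in 67.0% and 74.5% of barcodes and in 28.4% (26.8 to 30.1) and 35.3% (32.7 to 37.9) after thinning. Barcodes with 10 or more Sox4 UMIs numbered 53 in the control library and 198 in the deeper library labelled TBL/RβKO. Of these 198, 144 (72.7%) also had Ppy, compared with 547 of the other 1140 (48.0%). The 198 were also deeper, with a median of 59313.5 UMIs outside hormones against 35882. With insulin alone the levels were 71.4 and 80.4 CPM (log2 ratio 0.17, 0.08 to 0.26). Sox4 in the control library went down from 130 CPM in the lowest insulin band to 67.4 CPM in the highest, and in the other from 157 to 48.3 CPM. At 30 to 50% insulin the libraries did not separate (75.4 and 74.5 CPM, log2 ratio -0.02, -0.12 to 0.09), and at 50% or more Sox4 was lower in the library labelled TBL/RβKO (log2 ratio -0.48, -0.70 to -0.27). Endothelial-marker barcodes without a hormone held Sox4 at 810 and 787 CPM and ductal-marker barcodes of the library labelled TBL/RβKO at 932 CPM.

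Hes1, the Notch-responsive repressor of Neurog3, was higher in the insulin class of the library labelled TBL/RβKO, 32.1 CPM (30.7 to 33.6) against 20.4 CPM (19.4 to 21.4), in 54.3% and 32.9% of barcodes. After thinning these shares were 13.9% (12.1 to 15.9) and 8.92% (7.90 to 10.0). Hes1 in the Ppy class had the reverse order, 74.9 CPM (68.0 to 82.3) in the control library and 40.1 CPM (36.9 to 43.6) in the other, a log2 ratio of -0.90 (-1.08 to -0.72). The same held in the lowest insulin band (59.0 and 27.9 CPM, -1.08), whereas the ratio was 0.48 and 0.97 in the next 2 bands and -0.05 (-0.41 to 0.28) in the highest. With insulin alone Hes1 stood at 19.6 and 28.9 CPM (log2 ratio 0.56, 0.41 to 0.71). In the Gcg class both Hes1 (-0.27, -0.48 to -0.05) and Sox4 (-0.20, -0.29 to -0.10) were slightly lower in the library labelled TBL/RβKO.

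Neurog3, Gast, Aldh1a3 and Cck seldom shared a barcode after thinning, where each was itself seldom detected. Before thinning, 201 of 452 Neurog3-positive insulin-class barcodes of the library labelled TBL/RβKO also held Gast. Gast was seen in 488 of all 1338 barcodes of that class (36.5%), and depth is unequal before thinning. The shares after thinning therefore do not show that these genes mark separate cells. Of 1338 thinned insulin-class barcodes in the library labelled TBL/RβKO, 23.5% held exactly 1 of Neurog3, Gast, Aldh1a3 and Cck and 2.24% held 2, compared with 4.43% and 0.174% of 2869 in the control library. With the more widely detected Sox9, Sox4 and Hes1 counted as well, 217 barcodes (16.2%) held 2 of the 7 members and 40 (2.99%) held 3 in the library labelled TBL/RβKO. Gast was detected in 23 of 146 Neurog3-positive barcodes (15.8%, 10.3 to 22.7) and in 14.5% (12.6 to 16.6) of the others, a difference within the counting intervals. Sox4 was detected in 48.6% (40.3 to 57.0) of Neurog3-positive and 33.6% (31.0 to 36.4) of Neurog3-negative barcodes, and in 43.4% (36.3 to 50.6) and 33.9% (31.1 to 36.7) by Gast. By Cre detection Sox9 stood at 3.89 CPM with and 5.64 CPM without a Cre UMI, Sox4 at 101.1 and 114.5 CPM and Hes1 at 30.2 and 32.7 CPM. None of the 17 Aldh1a3-positive thinned barcodes held Neurog3, which allows a share of up to 17.6%, and 2 held Gast. Before thinning, 23 of 54 Aldh1a3-positive barcodes held Neurog3, which was seen in 452 of all 1338 (33.8%).

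Genes of the pathways around the members, in lists also chosen with earlier results of these data known, were read against the same background of 8.61% higher and 5.76% lower. Of 25 Notch pathway genes, 2 were at least 2-fold higher and 3 at least 2-fold lower, and the median log2 ratio was -0.14. Targets Hes5 (3 and 21 UMIs, log2 3.21, 1.46 to 5.60) and Heyl (2.12) were higher, and the ligands Jag2 (-2.10) and Dll1 (-1.56) and the receptor Notch1 (-1.10) lower. Among 25 measured endocrine differentiation factors 2 were higher, Cdkn1a (1.15) and Glis3 (1.12), and 3 lower, Mafa (-2.89), Nkx6-1 (-1.17) and Amotl2 (-1.03), with a median of -0.21. Neither list thus had a larger share of higher genes than the background.

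Of 11 measured genes of gastrin and cholecystokinin signalling and processing, 2 were higher, the hormone Ghrl (24 and 73 UMIs, log2 2.00) and the sulfotransferase Tpst1 (1.32), and the peptide Vip was lower (-1.44). Retinoid metabolism had 4 of 13 genes higher and none lower (median 0.07), among them the receptors Rara (1.45) and Rxra (1.29). Of 10 measured other Sox genes 3 were higher, Sox10 (0 and 21 UMIs, at least 9.23-fold), Sox11 (1.63) and Sox6 (1.36), and Sox18 was lower (-1.42). From the dedifferentiation list that the study used, which holds 4 of the 7 members, 16 of 56 measured genes were at least 2-fold higher (28.6%) and 1 lower (Derl3, -1.27), with a median of 0.39. Pcp4l1 (6.48) and Gast itself were among the highest.

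Genes with the most similar pattern were sought over the 10 pools formed by 2 libraries and 5 classes, among 14296 genes, as a description. Neurog3 resembled Ncald (r = 0.99), Lrriq1 (0.98) and Pcdha11 (0.97), and Sox9 resembled Spon1 (0.98), Ndufaf2 (0.97) and Ptn (0.96). Gast resembled Lrrc8d, Cmip (both 0.97) and Cbln3 (0.96), and Cck resembled Sgip1 (0.94), Tns1 (0.92) and S100a6 (0.90). Aldh1a3 resembled Cdca7 and Irf7 (both 0.98), Sox4 resembled Dapk2 and Plin2 (both 0.97) and Hes1 resembled Psma5, Tmem41a and Psmb1 (each 0.96). The pools share their library, so these values describe the 10 sums alone.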

How the data were processed

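Islet cells were measured by droplet single-cell RNA-sequencing in 2 libraries. The deposited values are whole-number UMI counts for each gene in each barcode. The authors' tool was Cell Ranger 7.1.0 and the build GRCm39 (mm39), per the submitters' processing notes. Counts were read as deposited. Barcodes with over 2500 genes and under 10% mitochondrial UMIs were kept. The study also set an upper limit of 6000 genes, removed ambient RNA and called doublets, whereas here no doublet caller was run and barcodes with several hormones were kept, with alternatives that leave them out. UMIs were summed by library and hormone class and divided by the UMIs outside hormone genes (Ins1, Ins2, Iapp, Gcg, Sst, Ppy and Pyy) and mitochondrial genes. Sums have exact Poisson intervals, shares exact Clopper-Pearson intervals and ratios exact conditional binomial intervals, all at 95%. Where no UMI was found, the limit is 3 counts. UMIs were thinned to 5000 per barcode for shares at equal depth, which left out 8 control barcodes of the insulin class. A hormone class needed 100 UMIs of the hormone per 10000, and a barcode was said to carry non-endocrine markers where a marker list reached 20 UMIs per 10000. Genes needed 20 UMIs in the insulin class to be compared, and a 2-fold ratio to be counted as higher or lower.

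The members and gene lists were chosen with earlier results of these data known. In each list the text names at most the 3 highest and 3 lowest genes past 2-fold, and the 3 genes with the most similar profile are named per member (Pearson's r of log2 CPM with a pseudocount of 1 over 10 pools, genes with at least 100 UMIs). Some genes that these rules name are not reported here. Positions and sequences came from the GENCODE annotation and genome of GRCm39. The alternatives were another limit on genes, CPM of all UMIs, a higher hormone threshold, barcodes with 1 hormone, barcodes without non-endocrine markers, the highest 5% by UMIs left out and a mean over barcodes. A pair of alternatives, without barcodes that also have Ppy or Sst, was chosen after seeing the data. The ratio code was tested on simulated data. Python 3.11.15, numpy 2.4.6, scipy 1.17.1, pandas 2.3.3 and matplotlib 3.10.9 were used.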

Additional observations from a re-analysis of the deposited data

Results flagged for a closer look

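Some members had opposite directions in different hormone classes of the same pair of libraries. Neurog3 had a log2 ratio of -0.37 in the Sst class and 2.23 in the insulin class. Sox4 had -0.20 in the Gcg class and 0.58 in the insulin class. Hes1 had -0.27 in the Gcg class and -0.90 in the Ppy class against 0.66 in the insulin class. These differences between classes were not tested, since each class has 1 library per group.

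Signal was also present in the barcodes that the filter left out, 2320 in the control library and 1654 in the library labelled TBL/RβKO. Among them Gast had 9 and 717 UMIs, a log2 ratio of 6.36, with up to 277 UMIs in 1 barcode. Neurog3 had 34 and 143 UMIs (log2 ratio 2.11), Aldh1a3 4 and 18 UMIs (2.21) and Sox4 170 and 384 UMIs (1.22). Free RNA and damaged cells were not separated in these barcodes.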

How the results depend on the processing

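Values here are log2 ratios in insulin-class barcodes, library labelled TBL/RβKO over control, unless a class is named. With CPM of all UMIs they were 1.72 for Aldh1a3, 6.24 for Gast, 1.11 for Hes1, 2.68 for Neurog3, 1.03 for Sox4 and 1.59 for Sox9. With the upper limit of 6000 genes they were 3.52 for Neurog3, 5.16 for Cck, 4.65 for Gast, 0.42 for Hes1, 0.14 for Sox4 and 3.06 for Sox9, while Aldh1a3 turned to -2.41, where 3 UMIs stood against 62. Gast in the Sst class also turned under that limit, to -0.33 (22 control and 27 other UMIs). Barcodes with 1 hormone gave 2.58 for Neurog3, 4.77 for Gast, 5.05 for Cck and 0.17 for Sox4. A mean over barcodes gave 2.66 for Neurog3, 0.72 for Aldh1a3, 0.49 for Sox4 and 1.45 for Sox9. Aldh1a3 stood at 1.71 with the hormone threshold at 300 per 10000 and at 0.71 without non-endocrine markers, and in barcodes with no hormone class the latter turned Aldh1a3 to -4.34 (4 and 2 UMIs) and Gast to -0.76 (1 and 6 UMIs). Without barcodes that also have Ppy the values were 1.31 for Neurog3, 4.62 for Gast, 0.54 for Hes1 and 0.19 for Sox4, and without those with Sst 3.64 for Neurog3, 5.96 for Gast and 1.79 for Sox9 (both alternatives were chosen after seeing the data). The cause of these moves was not tested. Of the insulin-class values under alternatives, the list count included, 50 were taken as unchanged, 29 moved beyond the counting interval in the same direction and 1 changed sign. A member's ratio was taken as unchanged where it stayed within its counting interval. The list count has no such interval and was judged by a fixed factor, under which 16 and 24 counted as unchanged. All its alternatives are among the 50, so fewer than 50 member ratios stayed within their interval. In the other classes 171 ratios stayed within the counting interval, 40 moved and 3 differences of at least 2-fold changed sign. Smaller differences changed sign too, among them Neurog3 in the Gcg class, from 0.10 to -0.69 with the upper limit and -0.64 with 1 hormone. No paired analysis was possible because each group has 1 library. The genes of the dedifferentiation list at least 2-fold higher numbered 16, and 24 with CPM of all UMIs. In that second setting the share of all genes past 2-fold was not counted. The median gene stood there at 0.32 instead of -0.13, so the 24 has no background to be read against. Depth limits Cck and Aldh1a3 most, with 15 and 125 control UMIs, and the replicate error is unknown throughout.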
